A study of Homo sapiens with 4 samples.

Results

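The genes described are 35 genes of the response to low oxygen and of glucose breakdown, of which 34 were measured. CA9 was not analysed here. They were matched by the gene symbol in the platform annotation, and a gene's value was the mean over its array features. These genes and the companion lists below were chosen with earlier results of these data known. Their shares beside those of all genes are therefore descriptions and not tests. The 34 genes had 112 of the 31332 features with a single gene symbol, between 1 and 13 features each, among 18334 genes in all.

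Cells answer to low oxygen through the hypoxia-inducible factors (HIF), transcription factors whose alpha subunits are hydroxylated and degraded while oxygen is present. Stable HIF binds short sites in the promoters and enhancers of genes for glucose transporters, glycolytic enzymes, secreted vascular factors and its own inhibitors. Glycolysis splits glucose to pyruvate and lactate in the cytosol, and tumour cells often run it even where oxygen is present.

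The cells were LNCaP, a line from a human prostate carcinoma. They were kept without serum for 24 h, and then received 1 µM 5-azacytidine for 48 h or 24 h, or the vehicle dimethyl sulphoxide (DMSO) for the same time, so that treated and vehicle cells alike were serum starved. 5-azacytidine is a cytidine analogue that traps DNA methyltransferases and is also built into RNA. Each 2-colour Agilent array carried RNA of azacytidine-treated cells in Cy5 and RNA of DMSO-treated cells of the same time in Cy3, with 2 arrays at 48 h and 2 at 24 h. The dyes were not swapped, so that dye bias and treatment cannot be told apart.

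Every value is a log2 ratio of azacytidine over DMSO, where 1 stands for a 2-fold difference and a value above 0 means more transcript in azacytidine-treated cells. The arrays gave ratios and no levels, so levels of different genes were not compared and fewer cells of a type could not be told apart from less RNA per cell. The median feature was at 0 on each array, so a shift shared by most genes could not be seen. Replicate arrays differed by a median of 0.332 over all genes at 48 h and of 0.126 at 24 h. The labels leave out whether replicates were separate cultures, and limma p-values thus cover only the scatter of these arrays, possibly technical. Of 5 measured markers of prostate epithelium, 2 were higher and 3 lower at 48 h, and 2 higher and 2 lower at 24 h. The means at 48 h and 24 h were 1.16 and 1.17 for KLK3 (prostate-specific antigen), 1.34 and 1.52 for the related protease KLK2, -1.70 and -1.26 for FOLH1 (prostate-specific membrane antigen) and -1.33 and -1.52 for the homeobox gene HOXB13. Of 11 measured markers of fibroblasts, endothelium and leukocytes, 1 was higher and 2 lower at 48 h, and 3 were higher and 0 lower at 24 h. The means at 48 h and 24 h were 2.45 and 2.83 for the macrophage marker CD68, 0.084 and 0.94 for VWF of endothelium, and -1.71 and -0.34 for LUM and 0.030 and 0.78 for COL3A1 of fibroblasts. The samples were labelled as a single cultured line, so these are ratios of marker transcripts. The presence of other cell types was not tested.

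At 48 h the hypoxia and glycolysis genes parted, with 8 of 34 higher and 9 lower, whereas at 24 h 13 were higher and 0 lower (limma, adjusted p under 0.05, 1 lower at an unadjusted p under 0.05). Called in either direction were 17 members at 48 h, beside 38.8% of all genes, and 13 at 24 h, beside 24.3%. The share of all 18334 genes that passed was 18.2% higher and 20.7% lower at 48 h, and 14.3% higher and 9.97% lower at 24 h. The 8 that were higher at 48 h made up 23.5% of the members and the 9 lower 26.5%, both near the shares of all genes, while the 13 higher at 24 h made up 38.2%. The median ratio of the members was 0.023 at 48 h (0.16 and -0.16 on the single arrays) and 0.51 at 24 h (0.57 and 0.51), beside 0 for all genes at both times. With 1 array left out, the spread in the model came only from the 2 arrays of the other time. Calls for the time left with 1 array, and for the difference, then rest on no spread of that time. Without 24 h replicate 1, and without 24 h replicate 2, limma called 0 members and 0 genes of the whole table at either time or in the difference. With the 24 h arrays alone limma called 18 members higher at 24 h, and 3713 of all genes (2618 as reported). BNIP3L, ERO1A, LDHA, LOX, P4HA1, PFKL and PGK1 were added, and ANKRD37 and HK2 were lost.

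The 13 glycolytic enzymes among them (hexokinases to lactate dehydrogenase) had a median of -0.78 at 48 h and 0.33 at 24 h. Limma called 2 of them higher and 6 lower at 48 h (15.4% and 46.2%, all genes 18.2% and 20.7%). At 24 h it called 3 of them higher and 0 lower (23.1% and 0%, all genes 14.3% and 9.97%). The other 21 genes had a median of 0.10 at 48 h and 0.99 at 24 h. Of these, 6 were higher and 3 lower at 48 h (28.6% and 14.3%), and 10 higher and 0 lower at 24 h (47.6% and 0%). The shares that follow are descriptions, since the members were chosen with earlier results of these data known. Above 0 on both 24 h arrays were 27 of the 34, or 79.4%, against 41.3% of all genes. Below 0 on both 48 h arrays and above 0 on both 24 h arrays were 13, or 38.2%, against 17.7% of all genes. Above 0 on all 4 arrays stood 9, against 17.1% of all genes. Genes at exactly 0 count as neither above nor below 0, which lowers the shares of all genes. Between 6011 and 6695 features were at exactly 0 on each array, but only 2 of the 112 member features on any array.

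**Figure D1:**
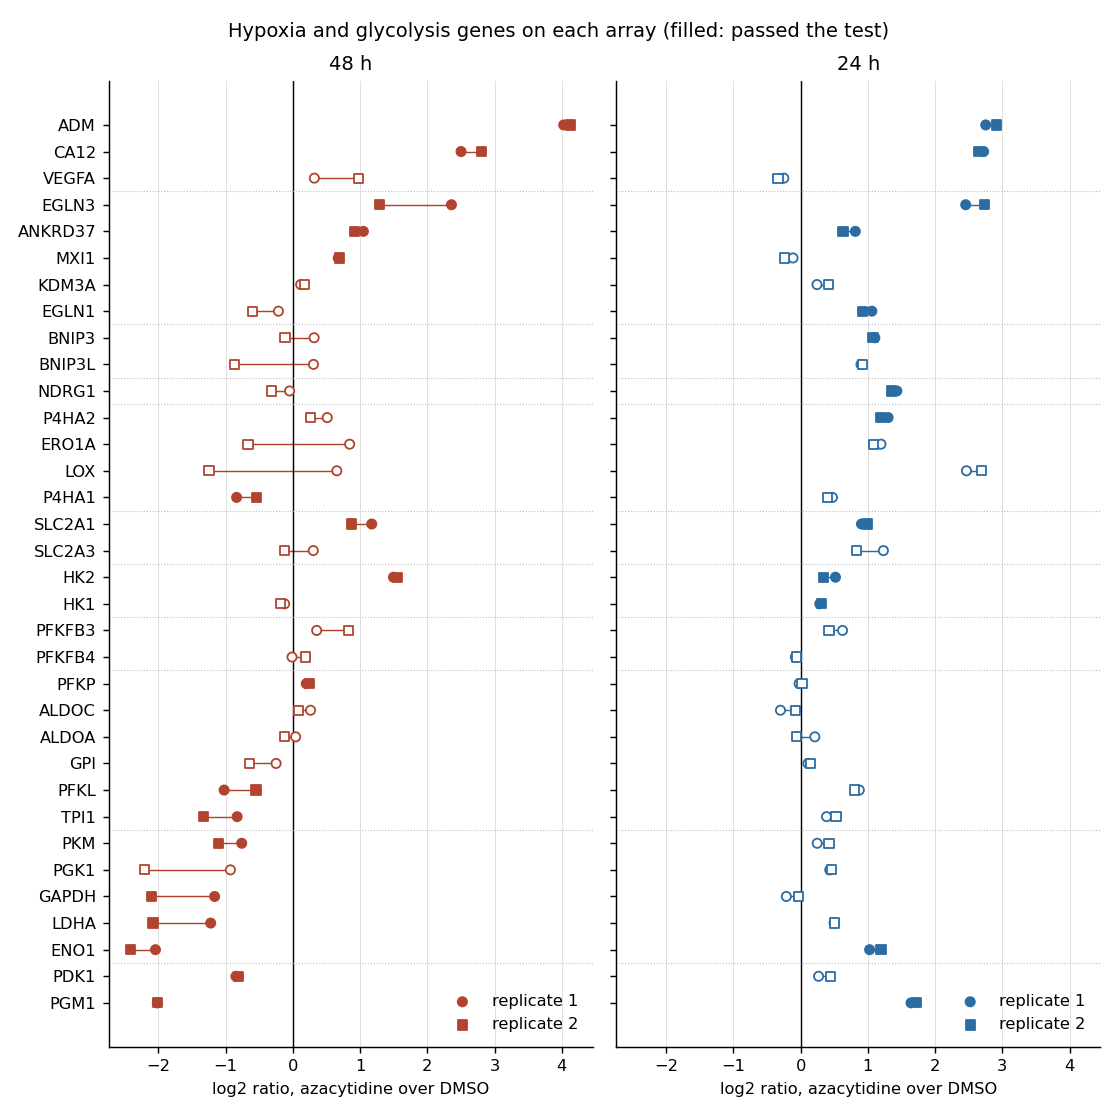
Each row is a gene and each point its log2 ratio of azacytidine over DMSO on 1 array, at 48 h (left) and 24 h (right), with circles for replicate 1, squares for replicate 2 and filled points for genes past the limma threshold. Genes are grouped by role and, within a role, ordered by their mean at 48 h. ADM stands highest at 48 h with 4.03 and 4.13, and the lower part of glycolysis lies left of 0 at 48 h and mostly right of 0 at 24 h.

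The ratio at 48 h minus that at 24 h passed the limma test for 14 members, 3 higher at 48 h (ADM, HK2 and MXI1) and 11 lower. Of all genes 23.0% were called in either direction, 9.83% were higher and 13.1% lower in this comparison, against 8.82% and 32.4% of the members. Both 48 h arrays lay below both 24 h arrays for 22 of the 34 genes, where this held for 36.7% of all genes, and above them for 8, where it held for 34.4%. With either 48 h array left out, the difference rests on a single 48 h array, and the number of calls changed for the members and for all genes. The 48 h replicate 2 was the lower of its pair for 21 of the 34 genes, a count that was not made for all genes. The member median was 0.16 on 48 h replicate 1 and -0.16 on 48 h replicate 2, beside 0 for all genes on both.

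**Figure D2:**
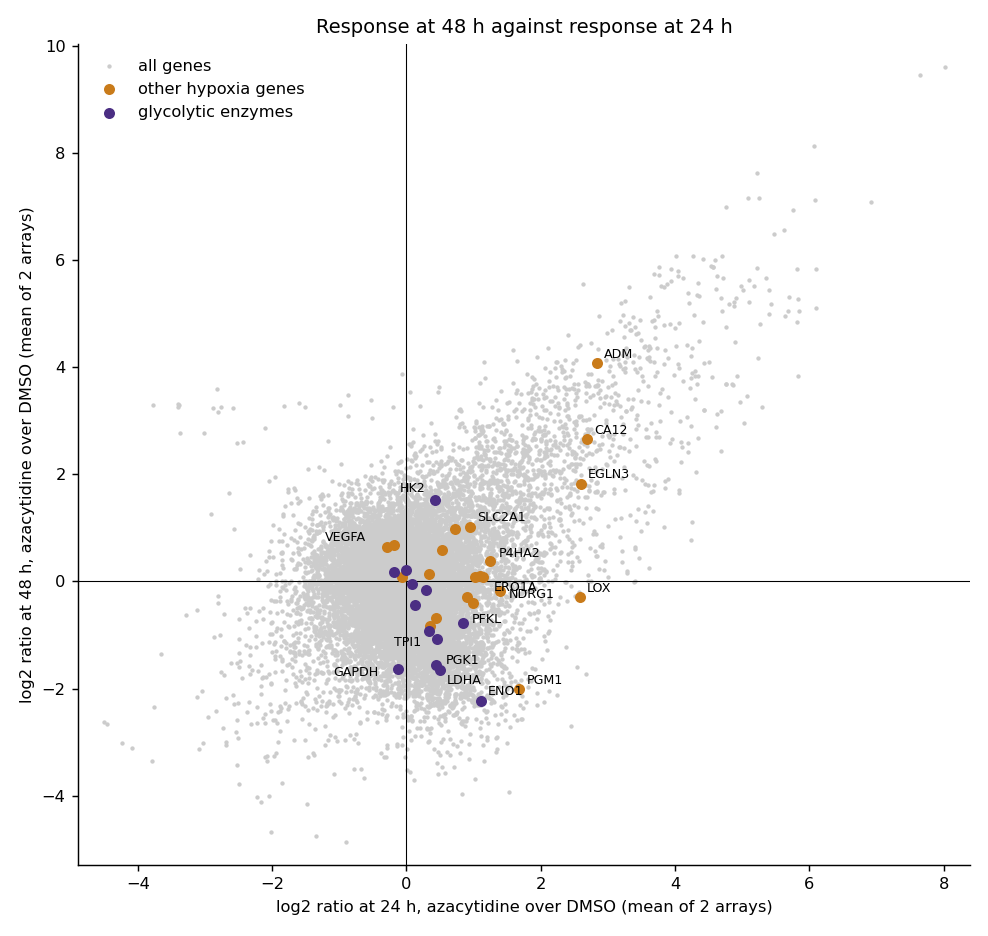
Each point is a gene at its mean log2 ratio at 48 h (vertical) and at 24 h (horizontal), with all 18334 genes in grey, the 13 glycolytic enzymes in purple and the other 21 hypoxia genes in orange. ADM, CA12 and EGLN3 lie far up on both axes, and ENO1 and PGM1 lie at -2.23 and -2.01 at 48 h and right of 0 at 24 h.

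The promoters of the genes with the largest ratios in each direction are shown because the core of the HIF binding site and CpG dinucleotides, the substrate of the methyltransferases that the drug traps, can be read in them. Each is the stretch of 250 bases directly before the annotated start, from RefSeq on build GRCh38.p14, and capitals mark the core, ACGTG or GCGTG on this strand or CACGT or CACGC where it lies on the other strand. ADM lies at chr11:10304823-10305072 on the plus strand, CA12 at chr15:63381847-63382096 on the minus strand, ENO1 at chr1:8878687-8878936 on the minus strand and PGM1 at chr1:63593161-63593410 on the plus strand.
ADM: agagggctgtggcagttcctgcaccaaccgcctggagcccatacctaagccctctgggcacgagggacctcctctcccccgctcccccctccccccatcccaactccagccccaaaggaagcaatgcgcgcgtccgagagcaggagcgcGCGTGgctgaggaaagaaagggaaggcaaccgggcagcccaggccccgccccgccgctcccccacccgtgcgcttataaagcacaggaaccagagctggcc
CA12: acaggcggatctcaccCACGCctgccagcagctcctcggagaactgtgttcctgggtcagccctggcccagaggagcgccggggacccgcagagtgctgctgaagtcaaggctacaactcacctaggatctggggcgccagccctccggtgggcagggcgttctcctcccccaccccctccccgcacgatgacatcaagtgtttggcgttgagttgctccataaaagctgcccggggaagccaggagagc
ENO1: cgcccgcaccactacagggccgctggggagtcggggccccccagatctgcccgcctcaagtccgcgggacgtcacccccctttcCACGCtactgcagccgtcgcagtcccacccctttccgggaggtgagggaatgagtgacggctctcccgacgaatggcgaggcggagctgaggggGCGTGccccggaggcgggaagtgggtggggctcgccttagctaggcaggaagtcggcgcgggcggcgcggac
PGM1: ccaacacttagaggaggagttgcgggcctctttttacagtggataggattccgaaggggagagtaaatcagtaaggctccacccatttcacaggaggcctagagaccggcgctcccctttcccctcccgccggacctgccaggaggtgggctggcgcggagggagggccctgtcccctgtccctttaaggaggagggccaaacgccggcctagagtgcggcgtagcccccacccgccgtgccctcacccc
The ADM stretch held 1 core, whose first base was 101 bases before the start, and 16 CpG dinucleotides. The CA12 stretch held 1 core at 234 bases and 13 CpG, the ENO1 stretch 2 cores at 166 and 72 bases and 27 CpG, and the PGM1 stretch no core and 14 CpG. A promoter entry was found for 30 of the 34 genes, and 20 of these, or 66.7%, held at least 1 core, against 51.7% of 14411 measured genes with an entry and 43.2% of all 35116 promoters in the table. The median number of CpG was 22.5 in the 30 promoters and 18 in those of all measured genes. A match of these letters is a description and not a site of binding, and methylation was not measured.

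Among the secreted and surface proteins, ADM and CA12 rose at both times, and ADM rose further at 48 h. ADM encodes adrenomedullin, a peptide that widens blood vessels and that hypoxia induces in many cell types. It stood at 4.03 and 4.13 on the 48 h arrays, and at 2.75 and 2.91 on the 24 h arrays. All 10 ADM features lay within 4.05 to 4.11 at 48 h and within 2.75 to 2.89 at 24 h, so the features of the gene hardly differed. The mean was 4.08 ± 0.072 at 48 h (16.9-fold, limma adjusted p = 0.00714) and 2.83 ± 0.11 at 24 h (7.12-fold, adjusted p = 0.0126), as mean ± SD with n = 2 arrays. The ratio at 48 h exceeded that at 24 h by 1.25 (SE 0.091, limma adjusted p = 0.0268), a call that ended without 48 h replicate 2 (adjusted p = 0.0562). With the arrays scaled to the same spread this difference was 0.27 (adjusted p = 0.743).

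CA12 encodes a carbonic anhydrase of the cell surface, which hydrates carbon dioxide and takes part in keeping the pH of cells that make much acid. Its values were 2.50 and 2.81 at 48 h, and 2.72 and 2.65 at 24 h (limma adjusted p = 0.00767 and 0.0134), so that the arrays of the 2 times overlapped. The 48 h minus 24 h difference was -0.031 (SE 0.14). All 4 CA12 features were called higher at both times, but 2 features of the same accession moved apart, with 4.11 and 2.30 at 48 h, and 2.47 and 3.82 at 24 h.

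VEGFA, the main growth factor for blood vessels and a textbook HIF target, did not pass the test at either time. It had 0.32 and 0.98 at 48 h, and -0.25 and -0.34 at 24 h, so that both 48 h arrays lay above both 24 h arrays. The difference was 0.94 (SE 0.29, limma adjusted p = 0.109). The 13 VEGFA features were all above 0 at 48 h and all below 0 at 24 h. Without 48 h replicate 1 the VEGFA value at 48 h was that of a single array, 0.98.

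Of the genes for oxygen sensing and feedback on HIF, 3 of 5 were higher at 48 h (EGLN3, ANKRD37 and MXI1), beside 18.2% of all genes. At 24 h 3 were higher (EGLN3, EGLN1 and ANKRD37), beside 14.3% of all genes. EGLN1 and EGLN3 encode prolyl hydroxylases that mark the HIF alpha subunits for destruction and are themselves induced by HIF. EGLN3 had 2.36 and 1.29 at 48 h, and 2.45 and 2.74 at 24 h (limma adjusted p = 0.0433 and 0.0358), and its 48 h call ended without 48 h replicate 1 (1.29, adjusted p = 0.0535). EGLN1 had -0.21 and -0.60 at 48 h, and 1.06 and 0.92 at 24 h, and the 48 h minus 24 h difference was -1.40 (SE 0.18, limma adjusted p = 0.0415; 0.0530 without 48 h replicate 2). The 2 hydroxylases thus stood apart at 48 h, EGLN3 above 0 on both arrays and EGLN1 below 0 on both. The 2 EGLN1 features differed at 48 h, at -0.85 and 0.037, and lay close together at 24 h, at 0.93 and 1.04.

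MXI1 encodes a partner of MAX that opposes MYC. It had 0.68 and 0.69 at 48 h, and -0.11 and -0.24 at 24 h, a difference of 0.86 (SE 0.070, limma adjusted p = 0.0284). Its call at 48 h (adjusted p = 0.0126) and its call in the difference ended without 48 h replicate 2 (adjusted p = 0.0605 and 0.0632). ANKRD37, an ankyrin repeat gene induced through HIF, had 1.05 and 0.92 at 48 h, and 0.81 and 0.63 at 24 h (limma adjusted p = 0.0133 and 0.0274). The 48 h call ended without 48 h replicate 2 (adjusted p = 0.0545) and the 24 h call without either 48 h array (adjusted p = 0.0506). KDM3A, a histone demethylase of the HIF response, had 0.12 and 0.17 at 48 h, and 0.24 and 0.42 at 24 h, and was not called.

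The receptors that target mitochondria for autophagy, BNIP3 and BNIP3L, spread around 0 at 48 h and stood close to 1 at 24 h. BNIP3 had 0.32 and -0.11 at 48 h, and 1.10 and 1.08 at 24 h, and passed the limma test at 24 h (adjusted p = 0.0339). BNIP3L had 0.31 and -0.87 at 48 h, and 0.90 and 0.92 at 24 h, and was not called at either time. The 24 h arrays of both genes lay close together and above the 48 h arrays, but the differences of -0.99 (SE 0.19) for BNIP3 and -1.19 (SE 0.51) for BNIP3L did not pass. With either 48 h array left out both differences stayed below 0, between -1.78 and -0.60. BNIP3L at 48 h then rested on a single array, at -0.87 without 48 h replicate 1 and at 0.31 without 48 h replicate 2. Its direction thus depended on the array kept, and so did that of BNIP3, at -0.11 and 0.32.

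NDRG1, a stress gene induced by hypoxia and by androgen, had -0.048 and -0.32 at 48 h, and 1.43 and 1.35 at 24 h (limma adjusted p = 0.221 and 0.0177). The difference was -1.57 (SE 0.13, adjusted p = 0.0284), and this call held with either 48 h array left out.

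The matrix and secretory genes serve collagen and disulphide formation. At 48 h P4HA1 was lower and 0 of the 4 were higher, beside 20.7% lower and 18.2% higher of all genes. At 24 h all 4 were above 0 on both arrays, as were 41.3% of all genes. Only P4HA2 was past the threshold at 24 h, beside 14.3% higher of all genes. P4HA1 and P4HA2 encode the catalytic subunits of collagen prolyl hydroxylase. P4HA1 had -0.84 and -0.54 at 48 h, and 0.47 and 0.40 at 24 h, a difference of -1.12 (SE 0.14, limma adjusted p = 0.0397). P4HA2 had 0.51 and 0.26 at 48 h, and 1.30 and 1.19 at 24 h, a difference of -0.86 (SE 0.13, limma adjusted p = 0.0450; 0.0642 without 48 h replicate 2). The 3 P4HA2 features carried different accessions and disagreed at 48 h, at -0.73, -0.054 and 1.94, where the first was called lower and the last higher. All 3 were above 0 at 24 h, at 1.82, 0.63 and 1.29. In the 48 h minus 24 h difference the first was called lower (-2.54, limma adjusted p = 0.0247) and the last higher (0.65, adjusted p = 0.0255). The gene's difference of -0.86 thus averaged features that moved apart.

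LOX encodes lysyl oxidase, which crosslinks collagen and elastin. It had 0.65 and -1.25 at 48 h, and 2.47 and 2.69 at 24 h. Its features at 2.65, 2.86 and 3.40 at 24 h were called higher there (limma adjusted p = 0.0454, 0.0381 and 0.0454), and its other features were not. The 24 h ratios were among the highest of the 34 genes, but LOX passed the limma test at neither time (adjusted p = 0.759 and 0.0757), since its 48 h arrays lay far apart and both times shared the estimate of the spread. ERO1A, the oxidase that renews disulphide-forming enzymes in the endoplasmic reticulum, had the same shape, with 0.85 and -0.67 at 48 h, and 1.20 and 1.09 at 24 h, and was not called. Without 48 h replicate 1 the 48 h values were -1.25 for LOX and -0.67 for ERO1A, each from a single array. Without 48 h replicate 2 they were 0.65 and 0.85, so that the direction of both at 48 h rests on the array kept. In both of these settings LOX and ERO1A were called higher at 24 h (adjusted p = 0.0285 and 0.0290).

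Glucose enters the cell through the transporters SLC2A1 and SLC2A3, and hexokinase then traps it by phosphorylation. SLC2A1 was higher at both times, with 1.17 and 0.87 at 48 h, and 0.90 and 0.99 at 24 h (limma adjusted p = 0.0178 and 0.0280), and the arrays of the 2 times overlapped. SLC2A3 had 0.30 and -0.13 at 48 h, and 1.23 and 0.83 at 24 h, and was not called (adjusted p = 0.774 and 0.0537). Of its 2 features 1 was at exactly 0 on both 48 h arrays and at 1.43 and 1.63 at 24 h. SLC2A14, a transporter gene that is a near copy of SLC2A3 and can share its signal, stood at 1.99 and 2.07 at 48 h, and at 2.38 and 2.21 at 24 h.

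HK2 rose at both times and more at 48 h. HK2 is the inducible hexokinase of many tumours, and HK1 the one found in most tissues. HK2 had 1.50 and 1.56 at 48 h, and 0.52 and 0.35 at 24 h, a difference of 1.10 (SE 0.089, limma adjusted p = 0.0284; 0.0659 without 48 h replicate 2). With the arrays scaled to the same spread the difference was 0.83 and did not pass. Of its 2 features 1 stood at 0.17 at 24 h and was not called, and the other stood at 0.70 and was called, while both were called at 48 h, at 1.78 and 1.28. Its 24 h call (adjusted p = 0.0416) ended without either 48 h array (adjusted p = 0.0802). HK1 had -0.12 and -0.18 at 48 h, and 0.28 and 0.31 at 24 h, with a difference of -0.45 (SE 0.052, limma adjusted p = 0.0378; 0.0508 without 48 h replicate 2). Of the 2 HK1 features 1 was at exactly 0 on all 4 arrays, and the other stood at -0.31 at 48 h and 0.59 at 24 h. The 2 hexokinases therefore stood on opposite sides of 0 at 48 h on both arrays.

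**Figure D3:**
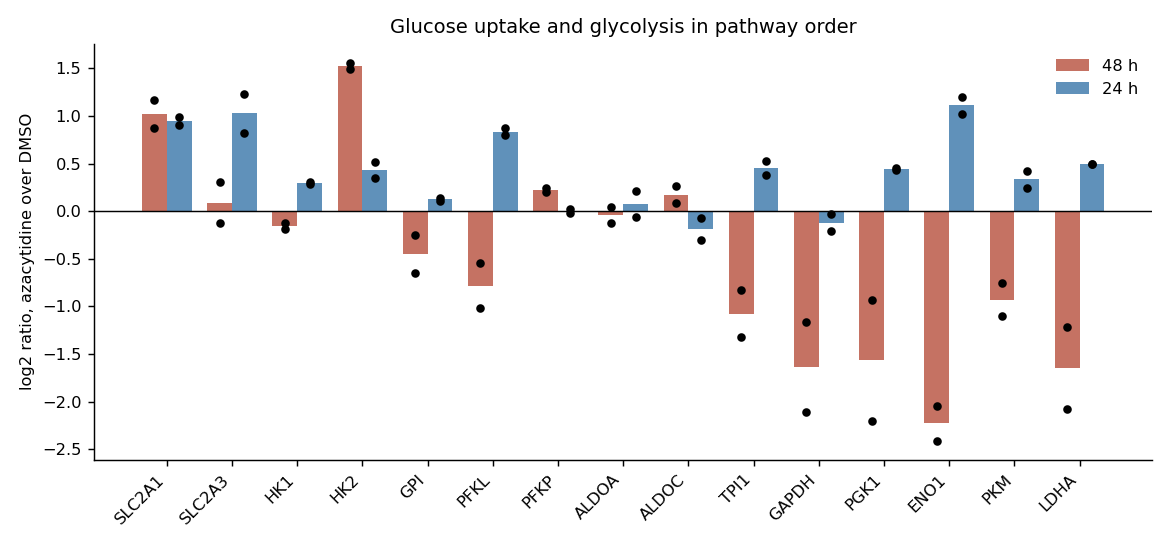
Bars are mean log2 ratios of azacytidine over DMSO (48 h in red, 24 h in blue) and black points the single arrays, with glucose transporters and glycolytic enzymes from left to right in the order of the pathway. HK2 stands at 1.53 at 48 h, whereas the bars from TPI1 to LDHA all lie below 0 at 48 h, down to -2.23 for ENO1.

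In upper glycolysis, which turns the hexose into triose phosphates, 1 of 6 genes was higher and 2 were lower at 48 h, and 0 were called at 24 h. The shares of all genes were 18.2% higher and 20.7% lower at 48 h, and 14.3% and 9.97% at 24 h. PFKL, the liver type of phosphofructokinase, had -1.02 and -0.55 at 48 h, and 0.87 and 0.80 at 24 h, a difference of -1.62 (SE 0.21, limma adjusted p = 0.0410). Its platelet type isozyme PFKP had 0.20 and 0.24 at 48 h, and -0.022 and 0.021 at 24 h, and was called higher at 48 h (limma adjusted p = 0.0346), a call that ended without either 48 h array (adjusted p = 0.0598 and 0.0878). The 2 phosphofructokinases thus stood apart at 48 h, PFKL below 0 and PFKP above 0 on both arrays. The 2 PFKL features differed in size, at -1.19 and -0.38 at 48 h, and at 1.08 and 0.59 at 24 h. The first was called at 48 h and in the difference, and the second was called in neither.

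TPI1, which interconverts the triose phosphates, had -0.83 and -1.33 at 48 h, and 0.39 and 0.53 at 24 h, a difference of -1.53 (SE 0.23, limma adjusted p = 0.0455). Its calls at 48 h (adjusted p = 0.0312) and in the difference ended without 48 h replicate 2 (adjusted p = 0.0548 and 0.0507). The fall came from 1 of its 2 features, which stood at -2.01 at 48 h while the other, of another accession, stood at -0.15. GPI, which isomerises the phosphorylated glucose, had -0.25 and -0.65 at 48 h, and 0.11 and 0.14 at 24 h, and was not called. With the arrays scaled to the same spread and with quantile normalization it was called lower at 48 h. The aldolases ALDOA (0.042 and -0.13 at 48 h, 0.21 and -0.058 at 24 h) and ALDOC (0.26 and 0.086 at 48 h, -0.30 and -0.076 at 24 h) were not called either. The 2 ALDOA features had opposite signs at both times, at 0.46 and -0.54 at 48 h, and at -0.52 and 0.67 at 24 h.

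PFKFB3 and PFKFB4 make and remove the phosphorylated fructose that activates phosphofructokinase. PFKFB3 had 0.36 and 0.83 at 48 h, and 0.62 and 0.42 at 24 h, above 0 on all 4 arrays but past the threshold at neither time. Its features at 0.64 and 0.68 at 48 h, and 1.02 and 0.59 at 24 h, were called higher at both times. The features at 0.23 and 0.82 at 48 h, and 0.63 and -0.14 at 24 h, were called at neither. PFKFB4 had -0.012 and 0.19 at 48 h, and -0.077 and -0.065 at 24 h.

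The 5 enzymes of lower glycolysis were all below 0 on both 48 h arrays, as were 38.2% of all genes. Called lower at 48 h were 4 of them (GAPDH, ENO1, PKM and LDHA), beside 20.7% of all genes. At 24 h 1 of them was higher (ENO1, beside 14.3% of all genes) and 0 were lower. Their median was -1.63 at 48 h and 0.44 at 24 h. GAPDH makes the first intermediate with high transfer potential, and it had -1.16 and -2.11 at 48 h, and -0.21 and -0.028 at 24 h (limma adjusted p = 0.0419 and 0.835). Its 10 features all lay between -1.72 and -1.59 at 48 h, so the spread was between arrays and not between features, and the call ended without 48 h replicate 2 (-1.16, adjusted p = 0.0506). PGK1, the first step that yields ATP, had -0.93 and -2.21 at 48 h, and 0.43 and 0.46 at 24 h, and was not called (adjusted p = 0.0704 and 0.471). Of its 13 features 12 were below 0 at 48 h, between -2.76 and -1.11, and the single feature with another accession was at 0.72. Where features of the same accession were averaged first, PGK1 stood at -0.52 at 48 h and -0.34 at 24 h. With either 48 h array left out, the PGK1 value at 48 h was that of a single array, -2.21 or -0.93.

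ENO1, enolase, had the lowest 48 h ratio of the 34 genes. It stood at -2.04 and -2.41 at 48 h, and at 1.03 and 1.20 at 24 h, with both features on the same side. The mean was -2.23 ± 0.26 at 48 h (4.68-fold lower, limma adjusted p = 0.0101) and 1.11 ± 0.12 at 24 h (2.16-fold higher, adjusted p = 0.0303), as mean ± SD with n = 2 arrays. The difference was -3.34 (SE 0.18, adjusted p = 0.0239).

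PKM, the pyruvate kinase of most tissues and tumours, had -0.76 and -1.11 at 48 h, and 0.25 and 0.42 at 24 h, a difference of -1.27 (SE 0.17, limma adjusted p = 0.0425). Its calls at 48 h (adjusted p = 0.0260) and in the difference ended without 48 h replicate 2 (adjusted p = 0.0708 and 0.0655). Of its 3 features 2 stood at -1.16 and -1.66 at 48 h, and the third, of another accession, at 0.017. LDHA turns pyruvate into lactate, and had -1.22 and -2.08 at 48 h, and 0.50 and 0.50 at 24 h (limma adjusted p = 0.0346 and 0.274). Its 3 features were all below 0 at 48 h but far apart, at -0.37, -2.80 and -1.78, and with their median in place of the mean the adjusted p was 0.0504.

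**Figure D4:**
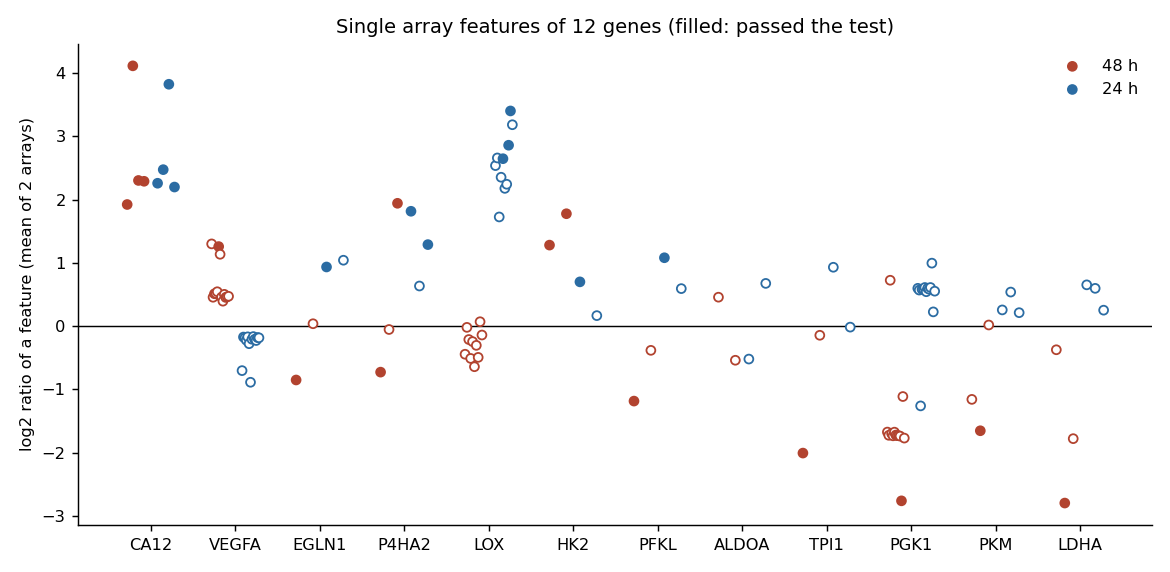
Each point is a single array feature of 1 of 12 genes at its mean log2 ratio over 2 arrays, at 48 h (red, left) and 24 h (blue, right), filled where the feature passed the limma test over all features. The feature means of VEGFA and LOX keep to the same side of 0 at 24 h, though those of LOX run from 1.73 to 3.40. The lowest LOX mean at 24 h averages -0.098 and 3.55 on the single arrays. Single features of PGK1, TPI1, P4HA2 and PKM stand apart at 48 h, such as 0.72 for 1 PGK1 feature.

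PDK1 and PGM1 stand at branches of the pathway, and both were lower at 48 h. PDK1 encodes a kinase that shuts pyruvate dehydrogenase and so keeps pyruvate out of mitochondria. It had -0.85 and -0.81 at 48 h, and 0.27 and 0.44 at 24 h, a difference of -1.18 (SE 0.087, limma adjusted p = 0.0269). Of its 2 features 1 had -1.13 and -0.49 on the 48 h arrays and the other -0.57 and -1.13, so their mean varied less than either. Neither feature passed the limma test over all features at 48 h (adjusted p = 0.0820 and 0.0564) or in the difference (adjusted p = 0.0617 and 0.103). At 24 h the PDK1 features stood at 0.69 and 0.015. Its 48 h call (adjusted p = 0.0130) ended without either 48 h array (adjusted p = 0.0535 and 0.0634), and the difference ended without 48 h replicate 2 (adjusted p = 0.0602). PGM1 encodes phosphoglucomutase, which links glycogen and glycolysis. It had -2.02 and -2.01 at 48 h, and 1.64 and 1.73 at 24 h, so that replicates lay close together and the times far apart. The single PGM1 feature was 4.03-fold lower at 48 h (limma adjusted p = 0.00714) and 3.21-fold higher at 24 h (adjusted p = 0.0126), and its difference of -3.70 (SE 0.055, adjusted p = 0.0211) was the largest of the 34 genes. ENO1 and PGM1 were the only 2 members called lower at 48 h and higher at 24 h, a pattern of 3.37% of all genes. Called higher at both times were 6 members (ADM, CA12, EGLN3, ANKRD37, SLC2A1 and HK2), against 7.40% of all genes.

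The ratios of cytosolic ribosomal protein genes, a list added after the values were seen, are given beside the fall of the glycolytic enzymes because they moved in the same arrays. Of 72 measured, 2 were higher and 35 lower at 48 h (2.78% and 48.6%, all genes 18.2% and 20.7%). At 24 h 2 were higher and 5 lower (2.78% and 6.94%, all genes 14.3% and 9.97%). Their medians were -0.68 and -1.40 at 48 h, and 0.0028 and 0.098 at 24 h, a value for each array. The 13 glycolytic enzymes had medians of -0.76 and -0.65 on the 48 h arrays, and the 5 of lower glycolysis -1.16 and -2.11. What these shared ratios have to do with the glycolytic ratios was not tested.

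The genes that sense oxygen and build HIF, other than the members, were more often lower than higher. Of 16, 2 were higher and 6 lower at 48 h, and 1 was higher and 5 lower at 24 h, against 18.2% and 20.7% of all genes at 48 h and 14.3% and 9.97% at 24 h. HIF1AN, the asparaginyl hydroxylase that blocks HIF from its coactivators, had -1.80 and -1.82 at 48 h, and 0.015 and -0.14 at 24 h (limma adjusted p = 0.00722 and 0.486). ARNT, the beta subunit of HIF, was lower at both times, with -0.68 and -0.74 at 48 h, and -0.87 and -0.76 at 24 h (limma adjusted p = 0.0119 and 0.0163). SIAH1, a ubiquitin ligase for the prolyl hydroxylases, had -0.83 and -1.06 at 48 h, and -0.38 and -0.26 at 24 h. EGLN2, the remaining HIF prolyl hydroxylase, had -0.33 and -0.62 at 48 h, and 1.05 and 1.00 at 24 h, the same direction on every array as EGLN1.

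Of 25 further genes that hypoxia commonly induces, 8 were higher and 4 lower at 48 h (32% and 16%, all genes 18.2% and 20.7%). At 24 h 10 were higher and 3 lower (40% and 12%, all genes 14.3% and 9.97%). Their median was 0.054 at 48 h and 0.50 at 24 h. ANGPTL4, a secreted inhibitor of lipoprotein lipase, had 3.37 and 3.52 at 48 h, and 2.72 and 2.75 at 24 h (limma adjusted p = 0.00714 and 0.0126). IGFBP3, which binds insulin-like growth factors, had 4.29 and 4.07 at 48 h, and 3.29 and 3.62 at 24 h, and the chemokine receptor CXCR4 had 3.76 and 3.42 at 48 h, and 2.34 and 2.49 at 24 h. These 3 stood with ADM above 2 on every array. TMEM45A, a membrane protein gene, turned like PGM1, with -1.98 and -2.28 at 48 h, and 1.49 and 1.48 at 24 h (difference -3.61, limma adjusted p = 0.0225).

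Among the isozymes and remaining steps of glycolysis, 6 of 19 were higher and 3 lower at 48 h (31.6% and 15.8%, all genes 18.2% and 20.7%). At 24 h 5 were higher and 1 lower (26.3% and 5.26%, all genes 14.3% and 9.97%). HKDC1, a hexokinase domain gene, had 4.72 and 4.79 at 48 h, and 3.92 and 2.89 at 24 h (limma adjusted p = 0.0116 and 0.0240). PFKM, the muscle phosphofructokinase, was lower at both times, with -0.58 and -0.63 at 48 h, and -0.79 and -0.72 at 24 h (limma adjusted p = 0.0110 and 0.0152). PFKFB2, a relative of PFKFB3, had 0.92 and 1.05 at 48 h, and 0.69 and 0.57 at 24 h. LDHD, a lactate dehydrogenase for the D form, had 0.55 and 0.64 at 48 h, and 0.30 and 0.36 at 24 h.

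Of 17 genes for the fate of pyruvate and lactate, 2 were higher and 7 lower at 48 h (11.8% and 41.2%, all genes 18.2% and 20.7%). At 24 h 2 were higher and 1 lower (11.8% and 5.88%, all genes 14.3% and 9.97%). Their medians were -0.77 at 48 h and 0.26 at 24 h. PDHB, a subunit of pyruvate dehydrogenase, had -2.02 and -2.81 at 48 h, and 0.25 and -0.017 at 24 h (limma adjusted p = 0.0196 and 0.802). The pyruvate dehydrogenase kinase PDK3 had -1.25 and -1.75 at 48 h, and 0.15 and 0.085 at 24 h, and citrate synthase, CS, had -1.02 and -0.88 at 48 h, and 0.10 and 0.41 at 24 h. PC, pyruvate carboxylase, had -0.16 and -0.17 at 48 h, and -0.58 and -0.66 at 24 h, and was called at 24 h.

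Of 9 genes of the pentose phosphate pathway, 1 was higher and 2 lower at 48 h (11.1% and 22.2%, all genes 18.2% and 20.7%). At 24 h 2 were higher and 1 lower (22.2% and 11.1%, all genes 14.3% and 9.97%). PGD, the second dehydrogenase of the pathway, had -1.62 and -2.03 at 48 h, and 1.05 and 1.18 at 24 h. Its difference was -2.94 (limma adjusted p = 0.0257), close in shape to ENO1. RPIA, an isomerase of the pathway, had 0.37 and 0.43 at 48 h, and 0.60 and 0.60 at 24 h. H6PD, the dehydrogenase of the endoplasmic reticulum, had -0.58 and -0.70 at 48 h, and -0.41 and -0.60 at 24 h.

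Of 13 further glucose and sugar transporters, 5 were higher and 2 lower at 48 h, and likewise at 24 h (38.5% and 15.4%). The shares of all genes were 18.2% and 20.7% at 48 h, and 14.3% and 9.97% at 24 h. SLC5A1, the sodium-coupled glucose transporter, stood at 4.15 and 3.82 at 48 h, and at 4.10 and 4.01 at 24 h (limma adjusted p = 0.00714 and 0.0128), far above SLC2A1 as a ratio. The fructose transporter SLC2A5 had 1.41 and 1.25 at 48 h, and 1.99 and 2.11 at 24 h, and the insulin-regulated SLC2A4 had 1.02 and 1.14 at 48 h, and 0.65 and 0.84 at 24 h. Of 8 genes for collagen hydroxylation and crosslinking, 2 were higher and 1 lower at 48 h (25% and 12.5%). At 24 h 0 were higher and 1 lower (0% and 12.5%). LOXL2, a relative of LOX, had -0.61 and -0.063 at 48 h, and -1.84 and -1.59 at 24 h, where LOX itself stood at 2.47 and 2.69. LOXL1 and LOXL3 were the 2 called higher at 48 h. LOXL1 had 1.39 and 2.04 at 48 h, and 0.096 and 0.076 at 24 h. LOXL3 had 0.29 and 0.33 at 48 h, and -0.15 and -0.028 at 24 h. CRTAP, a partner of a collagen prolyl hydroxylase, had -0.68 and -1.22 at 48 h, and 0.19 and 0.16 at 24 h.

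**Figure D5:**
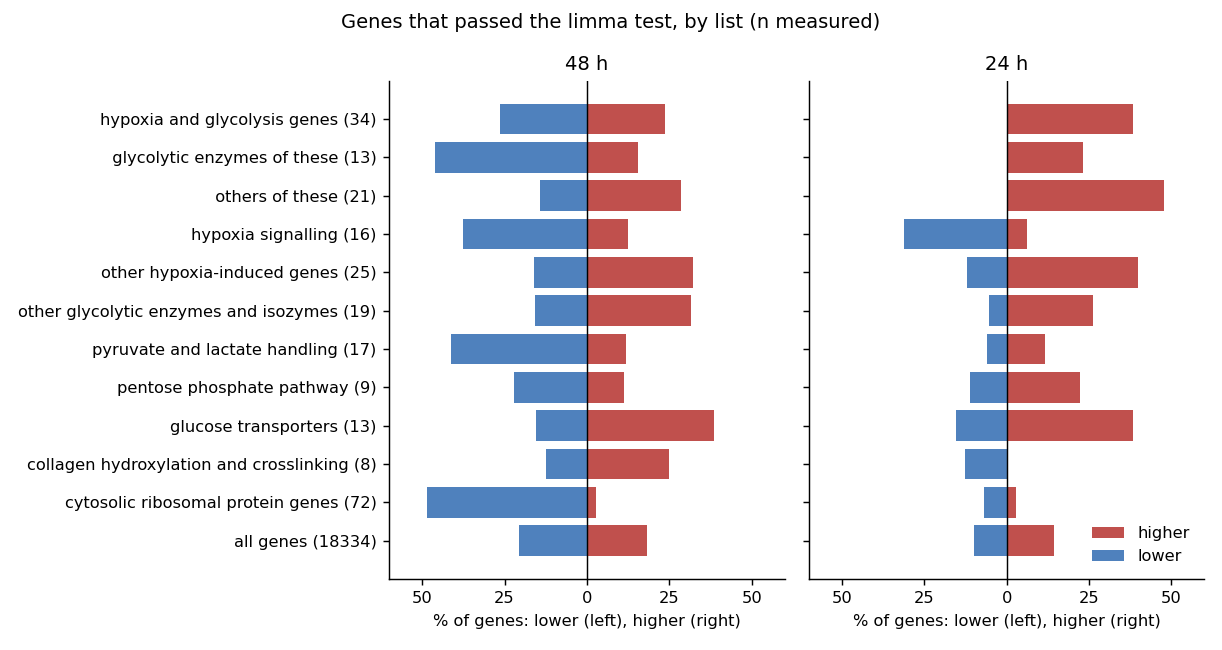
Bars give the percentage of the measured genes of each list that passed the limma test as higher (red, right of 0) or lower (blue, left of 0), at 48 h (left) and 24 h (right), with the number measured in brackets and all 18334 genes in the last row. At 24 h no bar runs left for the 34 hypoxia and glycolysis genes, and at 48 h 46.2% of the 13 glycolytic enzymes and 48.6% of the 72 ribosomal protein genes are lower.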

How the data were processed

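The authors deposited 1 table of log ratios with 45220 rows for 4 arrays, and 43376 features had a value on every array. Agilent Feature Extraction 8.5.1.1 made them, per the submitters' processing notes, with its settings not stated in the sources used here. The deposited table names neither base nor direction, and its values were taken to be log10 ratios of Cy5 over Cy3, as that software writes them, with azacytidine in Cy5 per the labels. They were multiplied by 3.322 to give log2 ratios, so size and direction rest on that reading. Signals were not analysed here and dim features could not be left out, and the software can write an exact 0 for features without usable signal. The number of arrays limits the precision.

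Features with 1 gene symbol were averaged per gene. The model was fitted in R 4.3.3 with limma 3.58.1 and had a mean per time over all 4 arrays (2 residual and 0.735 prior degrees of freedom), and p-values of each time against 0 and of 48 h minus 24 h received Benjamini-Hochberg adjustment over 18334 genes at a threshold of 0.05. The fit was tested on simulated data. The main fit did not pair arrays by replicate number. Deviations of same-numbered arrays correlated at -0.035 across genes, which shows no large shared effect but cannot tell how the replicates were made. Members and companion lists were chosen with earlier results of these data known, and all members were named. From each companion list up to 4 called genes with the lowest p were named. Promoters came from RefSeq (GRCh38.p14), and a gene with several entries was read from its first. Alternatives were a replicate block, scaling, quantile normalization, other feature summaries, robust moderation, the arrays of a single time and each array left out. Proteins were not analysed here. Plots used matplotlib 3.10.9.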

Additional observations from a re-analysis of the deposited data

Results flagged for a closer look

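The ratio of azacytidine over DMSO differed between the times for 14 of the 34 genes (limma, adjusted p under 0.05). As 48 h minus 24 h on the log2 scale, the difference was -3.70 for PGM1, -3.34 for ENO1, -1.62 for PFKL, -1.57 for NDRG1, -1.53 for TPI1, -1.40 for EGLN1, -1.27 for PKM, -1.18 for PDK1, -1.12 for P4HA1, -0.86 for P4HA2 and -0.45 for HK1. It was 0.86 for MXI1, 1.10 for HK2 and 1.25 for ADM. The P4HA2 value averaged features that were called in opposite directions, at -2.54 and 0.65. PGM1 and ENO1 were called on opposite sides of 0 at the 2 times, and ADM and HK2 on the same side at both.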

How the results depend on the processing

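A call met the opposite sign in another setting for 5 values, none of them called as reported. Opposite in sign to the reported value and called were BNIP3L at 48 h, at 0.31 without 48 h replicate 2 and -0.87 without its pair, and ERO1A at 48 h, at -0.67 and 0.85 when either 48 h array was left out. LOX at 48 h ran from -1.25 to 0.65, BNIP3 at 48 h from -0.11 to 0.32 and PGK1 at 24 h from -0.34 to 0.57, each called on 1 side only. Of these calls, those made without a 48 h array took their spread from the 24 h arrays alone. The number of calls depended more on the setting. With the replicate block limma called 0 members, and also 0 genes of the whole table, in every comparison. At an unadjusted p under 0.05, 8 members were higher and 10 lower at 48 h, 17 and 0 at 24 h, and 3 and 14 in the difference. With the arrays of a single time, 0 members were higher and 0 lower at 48 h (6 and 6 unadjusted), and 0 genes of the whole table were called. Quantile normalization gave 20 members higher at 24 h (all genes 3725, as reported 2618). Scaling to the same spread gave 1 higher in the difference (all genes 3150, as reported 1802). Robust moderation gave 5 lower in the difference (all genes 1670, as reported 2409). Single features gave 4 lower at 48 h (all genes 2577, as reported 3787) and 4 lower in the difference (all genes 1621). With each array left out, 0 to 8 members were higher and 0 to 13 lower at 48 h, between 0 and 18 were higher at 24 h, and 0 to 4 higher and 0 to 19 lower in the difference, where a lone array was assumed to vary like the others. The member median at 24 h was 0.57 with the median of a gene's features, 0.56 without exact zeros and 0.60 with scaling, and 0.51 to 0.57 with each array left out. The member median at 48 h lay between -0.16 and 0.16 with each array left out. Medians were not recomputed for settings that change the test or use single features. Averaging features of the same accession first, an alternative chosen after seeing the data, changed 1 of 102 member calls (PGK1 at 48 h). Depth is not defined for these ratios.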
